A study of Homo sapiens with 12 samples.

Results

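The nuclear-encoded subunits of the respiratory chain and the ATP synthase were taken by symbol from the mRNA table of H446, a human cell line derived from small cell lung cancer: NDUFA, NDUFB, NDUFC, NDUFS and NDUFV names for complex I, SDHA to SDHD for complex II, UQCR names for complex III, COX4 to COX8 names for complex IV and ATP5 names for complex V, with pseudogene names and the NDUFAF assembly factors left out. This gave 89 of 34886 symbols, of which 39 belonged by name to complex I, 4 to complex II, 9 to complex III, 17 to complex IV and 20 to complex V. Of these, 5 do not encode a subunit of their own: the read-through names NDUFC2-KCTD14 and ATP5J2-PTCD1, the pseudogene ATP5J2LP, and ATP5S and ATP5SL, which are not structural parts of the synthase. NDUFA4 was counted under complex I by its name, although its protein is known as a subunit of complex IV. Subunits with other names, such as CYC1 and NDUFAB1, fell outside the rule and were described apart.

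The inner mitochondrial membrane carries the respiratory chain, whose complexes I to IV pass electrons from NADH and succinate to oxygen. Complexes I, III and IV also pump protons. Complex V, the ATP synthase, uses the proton gradient to make ATP. Most subunits of these complexes are encoded in the nucleus and imported. A small set of core subunits of complexes I, III, IV and V is encoded by mitochondrial DNA. Those complexes are therefore built from transcripts of both genomes. Transcription of the nuclear genes is known to depend on factors such as NRF1, the GABP proteins and YY1, with the PGC-1 family as coactivators.

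The cells had been given CAPE (caffeic acid phenethyl ester, a constituent of bee propolis) at 40 µM, or the same volume of its solvent DMSO for 8 h, with no other agent and no genetic change named in the labels. Each group had 3 mRNA libraries, called here DMSO 1 to 3 and CAPE 1 to 3. Whether each replicate was a culture of its own is not stated in the labels. A p-value here therefore reflects only how far these libraries scatter, which may be a technical matter. In bulk RNA, fewer cells of a kind and less RNA per cell cannot be told apart. The libraries held 17569997 to 20917508 estimated counts, the most in DMSO 3.

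One library, DMSO 3, stood apart. It had 16207 genes with a count, against 17864 to 18587 in the other 5 libraries, and a TMM factor (the scale edgeR gives a library for its composition) of 0.699, against 1.07 to 1.09. Its correlation of log2 CPM (counts relative to the TMM-scaled library size) with DMSO 1 and DMSO 2 was 0.920 and 0.919, while DMSO 1 and DMSO 2 correlated at 0.992. Counts over the members are therefore given with all 6 libraries and again with DMSO 3 left out, which sets 3 CAPE libraries against 2 DMSO libraries. Fold changes of single genes are those without DMSO 3 unless the 6-library value is given. All 7 neuroendocrine markers examined stayed under 1 TPM (a transcript level that accounts for transcript length) in every library, although the line is labelled as small cell lung cancer, whereas MYC had a median of 354.8 TPM and KRT8 one of 786 TPM. Summed immune markers ran from 0.114 to 0.801 TPM in DMSO and from 1.08 to 2.03 TPM in CAPE, and summed muscle markers reached at most 0.532 TPM. Summed epithelial markers ran from 1292 to 2552 TPM in DMSO and from 1126 to 1185 TPM in CAPE. KRT8 (711 to 1493 TPM) and KRT18 (403 to 1058 TPM) carried this sum, while EPCAM reached at most 2.96 TPM and CDH1 at most 0.194 TPM. Of the markers listed with MYC for variant or non-neuroendocrine lines, YAP1 and REST had medians of 67.9 and 12.2 TPM. POU2F3, listed with them, reached at most 0.191 TPM. Summed fibroblast markers ran from 13.4 to 48.3 TPM in DMSO and from 47.9 to 56.8 TPM in CAPE; their part in the results was not tested.

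Transcripts of the chain were abundant. Per library the 89 symbols summed to 18042, 17980 and 25801 TPM in DMSO 1, 2 and 3 and to 16920, 16027 and 16765 TPM in CAPE 1, 2 and 3. Every CAPE sum lay below every DMSO sum, and DMSO 3 was 1.43 times the mean of DMSO 1 and 2, while the CAPE mean was 0.920 times that mean. Complex I supplied 33.2% to 34.5% of this sum in each library and complex V 30.6% to 32.1%. Complex IV supplied 20.2% to 22.6%, complex III 8.69% to 9.62% and complex II 3.06% to 4.66%, the lowest share of complex II being that in DMSO 3. In mean TPM over the 6 libraries the most abundant member of each complex was NDUFS5 in complex I (942.5), SDHA in complex II (343), UQCRH in complex III (555), COX4I1 in complex IV (970.0) and ATP5B in complex V (829.5).

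The levels also showed which isoforms these cells used. Genes for the heart, muscle, lung or testis forms of complex IV subunits were at or near 0. COX4I2, COX6A2 and COX8C had no count in any library, COX7B2 had 1 count in CAPE 3, and COX7A1 had 0 to 3 counts per library. A count of 0 in a library of this depth allows up to 3 counts, so these transcripts were not detectable rather than shown to be absent. Their widely expressed counterparts COX4I1, COX6A1, COX8A, COX7B and COX7A2 had mean levels of 970.0, 552, 703, 96.3 and 205 TPM. COX6B2, a testis form, had 0.142 to 1.23 TPM against 183 to 404 TPM for COX6B1. Of the 89 symbols 86 had a count in some library, 81 passed the filter on low counts with 6 libraries and 82 did so without DMSO 3. The symbols that never passed were COX4I2, COX6A2, COX7A1, COX7B2, COX8C, ATP5J2LP and ATP5L2, and UQCRHL passed only without DMSO 3.

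With all 6 libraries no member passed the test of CAPE against DMSO (edgeR quasi-likelihood F test, Benjamini-Hochberg adjusted p under 0.05 over all genes), where 1.95% of all 13595 genes did, 1.49% higher and 0.456% lower. At an unadjusted p under 0.05 it found 3 of 81 members, COX6B2 higher and SDHD and ATP5J2-PTCD1 lower, against 16.1% of all genes, and DESeq2 called 1, SDHD (1.23% of the members, against 7.52% of all genes). COX6B2 passed the filter on low counts only through its CAPE libraries, so its place among the tested genes depended on its being high there. The fitted log2 fold changes of the members were nonetheless displaced: their median was -0.82, against -0.01 over all genes, and 78 of 81 lay below 0, against 50.8% of all genes. Most members were high in DMSO 3. DMSO 3 exceeded the mean of DMSO 1 and 2 in 78 of 81 members, against 50.1% of all genes, and was at least 2-fold above it in 67, against 20.9% of all genes, and in no member was it 2-fold below.

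Without DMSO 3, the difference between CAPE and DMSO was small, and it was downward in 23 of 82 members and upward in 1, NDUFA4L2, by the same test (adjusted p under 0.05). NDUFA4L2 had 6 and 4 counts in DMSO 1 and 2 and passed the filter on low counts only through its CAPE libraries, so its place among the tested genes depended on its being high there. The lower members were 28.0% of those tested, against 20.8% of all 13919 genes, and the higher one was 1.22%, against 20.4%. With all 6 libraries the fold changes of the 23 ran from -1.80 (ATP5D) to -0.08 (ATP5S) in log2, and their edgeR adjusted p from 0.225 to 0.874. Without DMSO 3 the members' median log2 fold change was -0.12, against 0.00 over all genes, and 71 of 82 members lay below 0, against 49.7% of all genes. In 42 members every CAPE library was below both DMSO libraries, against 30.7% of all genes, and in 5 every CAPE library was above both, against 31.5%. NDUFA4L2 and COX6B2, both tested only through their CAPE counts, were among these 5. Among the 78 tested symbols that encode subunits, 20 fell (25.6%, against 20.8% of all genes) and 1 rose (1.28%, against 20.4%). The count of lower members was 13 when DMSO 1 was also left out (15.9%, against 16.1% of all genes) and 15 when CAPE 2 was (18.5%, against 18.3%), so in both cases the members' share was near that of all genes. On log2(TPM + 1) or log2(TPM + 0.1) it was 14 (17.1%, against 9.99% and 9.92%). CAPE 2 was the lowest CAPE library in 54 of 82 members. A fit that kept all 6 libraries but weighted each by its quality (limma voom) called 17 members lower (21.0%, against 19.7% of all genes) and 1 higher (1.23%, against 21.4%), and 16 of the 17 were among the 23.

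**Figure D1:**
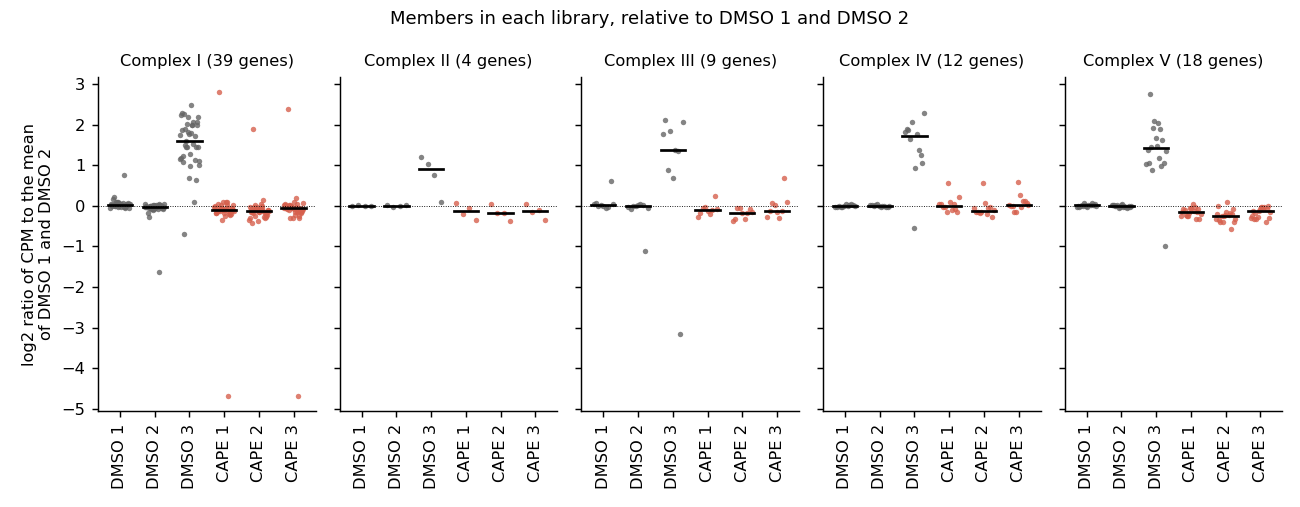
Each point is 1 member tested without DMSO 3, drawn in each library as the log2 ratio of its CPM to the mean of DMSO 1 and DMSO 2 (0.05 added to both), with DMSO in grey and CAPE in red. Black bars are medians over the members of a complex. DMSO 3 lies well above the other 5 libraries in all 5 complexes, and the CAPE medians of complexes I, II, III and V lie below 0 in all 3 CAPE libraries, while those of complex IV lie on both sides of 0.

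The 5 complexes differed in how many members were called. Without DMSO 3, 5 of 39 tested members of complex I fell, 2 of 4 in complex II, 5 of 9 in complex III, 0 of 12 in complex IV and 11 of 18 in complex V. Against 20.8% of all genes, the share was lower in complex I (12.8%) and complex IV and higher in complex III (55.6%), complex V (61.1%) and the 4 genes of complex II. Their median log2 fold changes were -0.11, -0.14, -0.14, -0.02 and -0.20 in that order. Of the 15 tested complex V symbols that encode subunits, 8 fell (53.3%, against 20.8% of all genes), with a median of -0.15. The CAPE mean of summed TPM relative to the mean of DMSO 1 and 2 followed a similar order, at 0.928, 0.914, 0.918, 0.966 and 0.884. Without CAPE 2 as well, the median of complex IV was 0.02. The differences between complexes carry no test, since members are not replicates of a condition. With all 6 libraries the medians were -0.74, -0.44, -0.91, -0.89 and -0.83, so complex IV then lay among the most displaced complexes instead of the least.

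**Figure D2:**
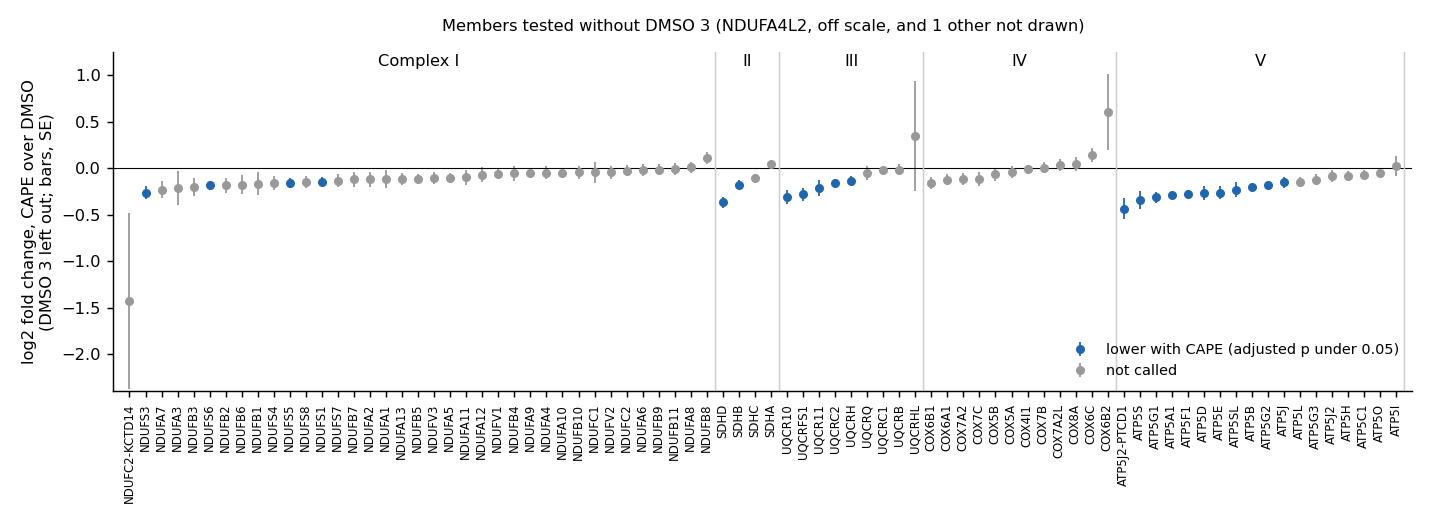
Log2 fold change of CAPE over DMSO without DMSO 3 for tested members, ordered within complexes I to V, with bars for the standard error of the fit. Blue points are called lower and grey points are not called; NDUFA4L2, the member called higher at 2.58, lies above the range drawn, and 1 other member is not drawn. Blue points are most frequent in complexes III and V, and complex IV has none.

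Complex I, NADH dehydrogenase, takes electrons from NADH. Its most abundant transcript, NDUFS5, an accessory subunit, was at 151, 149 and 412 CPM in DMSO 1, 2 and 3 and at 129.5, 130.3 and 145 CPM in CAPE 1, 2 and 3. CAPE lay below DMSO in every library, and without DMSO 3 it fell by 0.16 (log2, SE 0.05; adjusted p = 0.0317, edgeR). That call was lost when DMSO 1, DMSO 2, CAPE 1 or CAPE 2 was also left out (edgeR adjusted p = 0.115, 0.0848, 0.109 and 0.116). NDUFS5 had -0.81 (edgeR adjusted p = 0.352) with all 6 libraries.

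NDUFS3, a core subunit, and NDUFS6, an accessory subunit that binds zinc, also fell without DMSO 3, by 0.26 and 0.19 in log2 (edgeR adjusted p = 0.00651 and 0.0116). NDUFS3 was at 35.9, 36.3 and 119.8 CPM in DMSO and at 30.8, 29.1 and 30.6 CPM in CAPE, and with all 6 libraries it had -1.08 in log2 (edgeR adjusted p = 0.339). The core subunit NDUFS1, which carries iron-sulfur clusters, fell by 0.14 (edgeR adjusted p = 0.0251), and DMSO 3 lay close to the other DMSO libraries in it, at 136, 147 and 150.1 CPM in DMSO and 127, 129 and 129 CPM in CAPE. Of the 31 accessory subunits 2 were called lower (6.45%, against 20.8% of all genes), with a median of -0.10 over the tested ones. All lower members of complex I had NDUFS names, and none of the NDUFA and NDUFB genes was called lower.

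NDUFA4L2 was the only member called higher. It is a paralogue of NDUFA4 and known as a target of the hypoxia-inducible factors. It was rare, with 6, 4 and 21 counts in DMSO 1, 2 and 3 and 40, 21 and 31 counts in CAPE 1, 2 and 3, which is 0.316, 0.209 and 1.44 CPM against 2.11, 1.12 and 1.59 CPM. CAPE 2 lay below DMSO 3, so the groups overlapped in CPM with all 6 libraries. In TPM they did not: DMSO 1, 2 and 3 had 0.759, 0.345 and 1.14 TPM, and CAPE 1, 2 and 3 had 12.3, 6.41 and 11.8 TPM. The log2 fold change was 2.58 (SE 0.47, edgeR adjusted p = 4.49e-04) without DMSO 3 and 1.35 (SE 0.71, edgeR adjusted p = 0.352) with it. Other fits of all 6 libraries called NDUFA4L2 higher, at 2.65 and 3.66 on log2(TPM + 1) and log2(TPM + 0.1) (limma adjusted p = 0.0275 and 0.0490) and at 2.46 with voom quality weights (limma adjusted p = 2.88e-04). These fits used the same filter on low counts, which NDUFA4L2 passed only through its CAPE libraries, so they are no independent support. Why CPM and TPM differed for this gene was not tested. NDUFA4 was at 62.3, 58.2 and 141 CPM in DMSO and 61.7, 53.5 and 60.2 CPM in CAPE, a log2 fold change of -0.05 (SE 0.07) without DMSO 3.

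The promoter of NDUFA4L2 is shown for the motifs of the hypoxia-inducible factors, of which it is a known target. The stretch is the last 120 bases before the transcription start in RefSeq (GRCh38.p14, chr12:57240763-57240882, minus strand, listed there as COXFA4L2). Capitals mark GCGTG, a form of the hypoxia response core that was added to the search after the values were seen. The form searched first, ACGTG, did not occur in this stretch.
NDUFA4L2: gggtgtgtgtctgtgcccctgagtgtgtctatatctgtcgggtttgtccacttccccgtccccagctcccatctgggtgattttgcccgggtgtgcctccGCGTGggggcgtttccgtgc
The match starts 20 bases before the start. GCGTG on either strand was in 36.5% of the 35116 full promoters of that table (250 bases before to 50 after the start). The full promoter of NDUFA4L2, longer than the stretch shown, holds 2 GCGTG matches and no ACGTG. The match is a description only.

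Complex II, succinate dehydrogenase, is the only complex whose subunits are all nuclear, and it also serves the tricarboxylic acid cycle. SDHD, a membrane anchor, was among the members in which DMSO 3 lay closest to the other DMSO libraries, at 55.7, 56.7 and 60.4 CPM in DMSO and 44.1, 43.1 and 44.1 CPM in CAPE. All CAPE libraries lay below all DMSO libraries by more than the spread within either group. Its log2 fold change was -0.36 (SE 0.06, edgeR adjusted p = 1.88e-04) without DMSO 3 and -0.40 (SE 0.13, edgeR adjusted p = 0.225) with it. In TPM, DMSO 3 was the lowest library for SDHD, at 36.7 against 73.3 and 73.7 in DMSO 1 and 2 and 56.5 to 57.3 in CAPE, so the direction of that library depends on the scale.

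SDHB, the iron-sulfur subunit, fell by 0.18 (SE 0.05, edgeR adjusted p = 0.00939) without DMSO 3, from 107 and 102 CPM in DMSO 1 and 2 to 90.8, 93.0 and 93.5 CPM in CAPE. SDHC, the other anchor, was not called at -0.11 (SE 0.05, edgeR adjusted p = 0.0920), and neither was SDHA, the flavoprotein, at 0.05 (SE 0.04, edgeR adjusted p = 0.341). On log2(TPM + 1) and log2(TPM + 0.1) SDHC was called lower, at -0.33 in both (limma adjusted p = 0.0154 and 0.0148). SDHA was slightly higher in all 3 CAPE libraries (485, 477 and 477 CPM) than in DMSO 1 and 2 (459.6 and 467 CPM), so the anchors and SDHB on one side and SDHA on the other had opposite signs. SDHA shares sequence with the pseudogenes SDHAP1, SDHAP2 and SDHAP3, which had mean levels of 28.6, 5.41 and 13.3 TPM, so its counts are uncertain to that extent.

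Complex III, cytochrome bc1, had lower transcripts for its catalytic iron-sulfur protein and for several small subunits. UQCRFS1, the Rieske iron-sulfur protein, was at 47.6, 50.9 and 129 CPM in DMSO and 42.5, 39.2 and 40.2 CPM in CAPE. UQCRFS1 fell by 0.28 (SE 0.07, edgeR adjusted p = 0.0033) without DMSO 3 and had -0.90 (edgeR adjusted p = 0.336) with it. UQCR10, a small subunit beside the Rieske protein, was at 34.1, 32.5 and 114 CPM in DMSO and 27.5, 25.7 and 27.7 CPM in CAPE, and fell by 0.31 (SE 0.07, edgeR adjusted p = 0.00355), with -1.15 (edgeR adjusted p = 0.331) in the fit of all 6. Neither gene's groups overlapped.

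UQCR11, another small subunit, fell by 0.21 (SE 0.08, edgeR adjusted p = 0.0492), a call close to the threshold that was made in 5 of the 14 settings run without DMSO 3. The core protein UQCRC2 fell by 0.16 (edgeR adjusted p = 0.00766) and the hinge protein UQCRH by 0.14 (edgeR adjusted p = 0.0389, called in 6 of the 14 settings). UQCRH was at 112, 115 and 289.7 CPM in DMSO and 107, 100.2 and 105 CPM in CAPE. The other core protein, UQCRC1, was not called, at -0.02 (SE 0.04). UQCRHL, a near copy of UQCRH, had at most 0.665 CPM in any library, and reads of the pair could be split between them.

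Complex IV, cytochrome c oxidase, reduces oxygen, and no tested nuclear member of it was called. COX4I1 was at 242, 249 and 864 CPM in DMSO and at 251, 235 and 248 CPM in CAPE, with a difference of -0.01 (log2, SE 0.04; adjusted p = 0.921, edgeR) without DMSO 3. CAPE 1 to 3 lay on both sides of DMSO 1 and 2. COX6B1, which had the smallest p of the complex, was at 49.3, 52.2 and 211 CPM in DMSO and 45.9, 45.4 and 45.5 CPM in CAPE. Its log2 fold change of -0.16 (SE 0.06) had an edgeR adjusted p of 0.0506, just outside the threshold.

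COX6A1 and COX7A2 had log2 fold changes of -0.12 each (SE 0.06 and 0.07, edgeR adjusted p = 0.0997 and 0.162), and COX7A2L, COX7B and COX8A had 0.04, 0.00 and 0.05. COX6B2 was higher in all 3 CAPE libraries (0.793, 0.798 and 0.818 CPM) than in all DMSO libraries (0.527, 0.522 and 0.342 CPM), with an edgeR adjusted p of 0.257 without DMSO 3 and 0.303 with it. This rests on few counts, such as 10 in DMSO 1 and 16 in CAPE 3, so counting error alone is large. COX6B2 also passed the filter on low counts only through its CAPE libraries, where it was high.

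Complex V, the ATP synthase, had the most called members. In its F1 part, the head where ATP is made together with the central stalk, 4 of 5 subunits fell without DMSO 3, with a median of -0.26. ATP5A1, the alpha subunit, was at 477, 495 and 988 CPM in DMSO and at 411, 389 and 396 CPM in CAPE, and fell by 0.29 (SE 0.04, edgeR adjusted p = 4.18e-05), the smallest p among the members. ATP5B, the catalytic beta subunit, was at 864, 874 and 2250.4 CPM in DMSO and at 779, 753 and 734 CPM in CAPE, and fell by 0.21 (SE 0.04, edgeR adjusted p = 0.00128). In both genes every CAPE library lay below every DMSO library. With all 6 libraries ATP5A1 had -0.71 (edgeR adjusted p = 0.328) and ATP5B -0.82 (edgeR adjusted p = 0.348).

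ATP5D and ATP5E, the delta and epsilon subunits of the central stalk, fell by 0.26 each (edgeR adjusted p = 0.0120 and 0.00825), while ATP5C1, the gamma subunit, was not called at -0.07 (SE 0.05). ATP5D was the member with the largest excess in DMSO 3, at 47.9, 47.8 and 321 CPM in DMSO 1, 2 and 3, with DMSO 3 at 6.71-fold the mean of the other DMSO libraries, against 44.3, 37.5 and 38.0 CPM in CAPE. In the peripheral stalk, which holds the head in place, ATP5F1 and ATP5J fell by 0.27 and 0.15 (edgeR adjusted p = 1.40e-04 and 0.0359), and ATP5H and ATP5O were not called.

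The c ring, the rotor in the membrane, is built from 1 mature protein that 3 genes encode. ATP5G1 was at 127, 116 and 456 CPM in DMSO and at 103, 91.5 and 99.7 CPM in CAPE, and fell by 0.31 (SE 0.06, edgeR adjusted p = 5.99e-04) without DMSO 3, with -1.25 (edgeR adjusted p = 0.329) in the fit of all 6. ATP5G2 fell by 0.18 (SE 0.05, edgeR adjusted p = 0.0102), and ATP5G3 had -0.12 (SE 0.06, edgeR adjusted p = 0.108) and was not called. All 3 had every CAPE library below every DMSO library, and in TPM the 3 genes had mean levels of 634, 553 and 259.7.

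The 3 remaining lower members of complex V do not encode a structural subunit. ATP5J2-PTCD1, a read-through transcript that shares exons with ATP5J2, fell by 0.44 (SE 0.11, edgeR adjusted p = 0.00621), ATP5S by 0.34 (SE 0.10, edgeR adjusted p = 0.0117) and ATP5SL by 0.23 (SE 0.08, edgeR adjusted p = 0.0276). ATP5J2 itself was not called, at -0.08 (SE 0.07), and reads of the pair cannot be assigned with certainty. ATP5S was one of the 3 tested members that DMSO 3 held below the other DMSO libraries, at 17.2, 16.3 and 8.48 CPM, with 13.4, 12.8 and 13.7 CPM in CAPE. The other two were NDUFA5 and COX6B2. Over the 14 settings run without DMSO 3, 7 members were called lower in every one: ATP5A1, ATP5B, ATP5F1, ATP5G1, NDUFS3, SDHD and UQCR10. The calls made least often were those of UQCR11 (5 of 14), UQCRH (6), NDUFS1 and ATP5SL (8 each), ATP5J (9) and ATP5D, NDUFS5 and NDUFS6 (10 each). When 1 more library was left out, 10 of the 23 calls were lost without DMSO 1, 5 without DMSO 2, 4 without CAPE 1, 8 without CAPE 2 and 3 without CAPE 3. Those lost without DMSO 1 were NDUFS5, NDUFS6, SDHB, UQCR11, UQCRH, ATP5G2, ATP5J, ATP5J2-PTCD1, ATP5S and ATP5SL. Those lost without CAPE 2 were NDUFS1, NDUFS5, NDUFS6, UQCR11, UQCRH, ATP5D, ATP5J and ATP5SL. NDUFS1, NDUFS5, UQCRH, ATP5J and ATP5SL were lost without DMSO 2, NDUFS1, NDUFS5, UQCR11 and ATP5J without CAPE 1, and NDUFS1, UQCRH and ATP5D without CAPE 3.

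**Figure D3:**
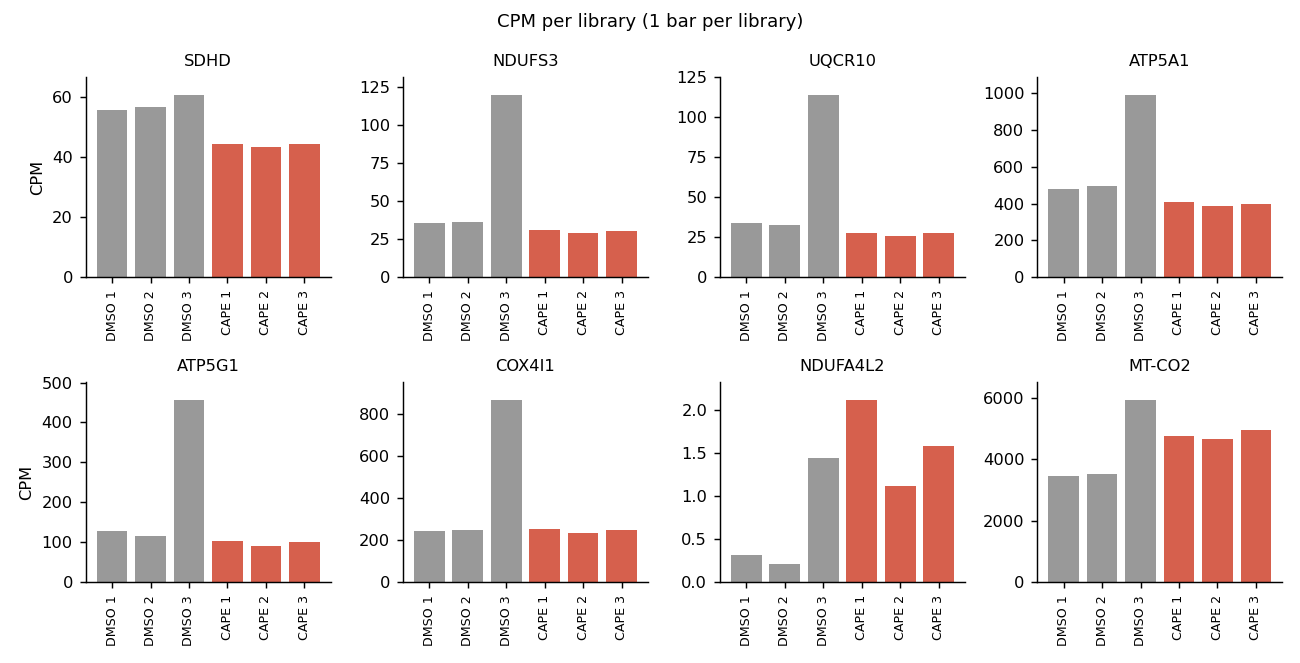
CPM in each library (1 bar per library, axis from 0) for 5 members called lower without DMSO 3, for COX4I1, NDUFA4L2 and the mitochondrially encoded MT-CO2. In 4 of the first 5 genes DMSO 3 is at least 2.03-fold the mean of DMSO 1 and 2, and in SDHD it is close to that mean. COX4I1 is level between CAPE and DMSO 1 and 2.

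The excess in DMSO 3 was general and larger for short transcripts. Its log2 difference from the mean of DMSO 1 and 2 had a median of 1.47 over the 81 members and ranged from -0.97 in ATP5S to 2.74 in ATP5D, against a median of 0.00 over all genes. By complex the medians were 1.59 in I, 0.90 in II, 1.58 in III, 1.71 in IV and 1.41 in V. Relative transcript length, taken as count per TPM and scaled to the library average, had a median of 0.376 over the tested members, against 1.36 over all genes tested, and 46 of the 81 lay in the shortest decile of all genes. Across members the DMSO 3 difference and this length had a Pearson r of -0.47 and a Spearman rho of -0.48 (n = 81), and across all 13595 genes -0.40 and -0.46. Genes are not independent, and the points share the same libraries and depth, so these correlations are descriptions.

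**Figure D4:**
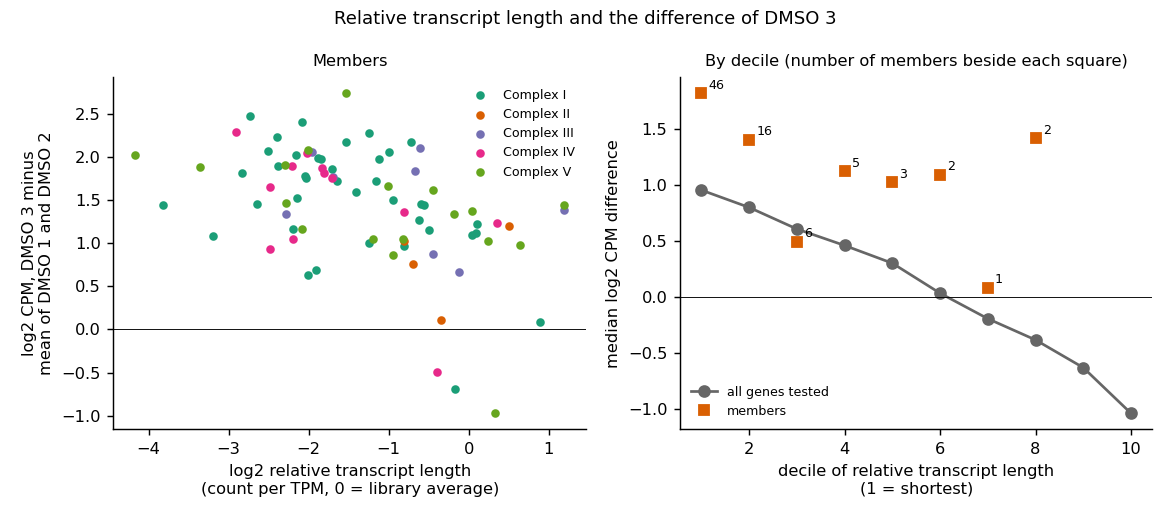
Left, the log2 CPM difference of DMSO 3 from the mean of DMSO 1 and 2 against log2 relative transcript length (count per TPM, 0 is the library average) for the 81 tested members, coloured by complex. Right, medians by decile of that length for all genes (grey) and members (orange, with their number). Members in the shortest decile have a median of 1.82, against 0.95 for all genes there.

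Within the shortest decile the members' median difference was 1.82, against 0.95 for all genes of that decile, in the second decile (16 members) it was 1.40, against 0.80, and in the third (6 members) it was 0.49, against 0.61. Cytosolic ribosomal protein genes, which also have short transcripts, showed a median of 1.77, and 71 of 83 were at least 2-fold above in DMSO 3. For mitochondrial ribosomal protein genes these values were 1.30 and 52 of 78. In TPM the members' sum in DMSO 3 was 1.43 times that of DMSO 1 and 2, while complex II was at 0.956 times, so part of the excess seen in CPM depends on the scale. The share of length, of RNA quality and of the cells themselves in this library's values was not tested.

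The 13 mitochondrially encoded subunits had mostly positive fold changes without DMSO 3, where most nuclear ones had negative ones, and the difference between the sets was not tested. Of these, 9 rose (69.2%, against 20.4% of all genes) and none fell (edgeR, adjusted p under 0.05), with a median log2 fold change of 0.20. MT-CO2, a core subunit of complex IV, was at 3458, 3506 and 5925 CPM in DMSO and at 4754, 4657 and 4948 CPM in CAPE, and rose by 0.46 (SE 0.05, edgeR adjusted p = 4.26e-06). MT-ND6, a core subunit of complex I, was at 536, 470.5 and 467 CPM in DMSO and at 659, 703 and 685 CPM in CAPE, and rose by 0.44 (SE 0.05, edgeR adjusted p = 7.81e-06). For MT-ND6 all CAPE libraries lay above all DMSO libraries, whereas MT-CO2 in DMSO 3 lay above CAPE.

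The others called higher were MT-ND1, MT-ND4, MT-ND4L, MT-CYB, MT-CO1, MT-ATP6 and MT-ATP8, and those not called were MT-ND2, MT-ND3, MT-ND5 and MT-CO3. With 6 libraries edgeR called none, and it found 3 higher at an unadjusted p under 0.05, against 1297 of 13595 genes. DESeq2 called 2 higher at its adjusted p, where it called 4.63% of all genes higher. Their summed level was 70961, 67335 and 40315 TPM in DMSO and 81665, 83226 and 83521 TPM in CAPE, so in TPM DMSO 3 was lowest in this sum and highest in the nuclear one. In CPM the direction was the other way, with DMSO 3 above the mean of DMSO 1 and 2 in 9 of the 13 genes and a median log2 difference of 0.22. MT-ATP6 and MT-ATP8, and MT-ND4 and MT-ND4L, overlap on the mitochondrial genome, so the split of reads within each pair is uncertain. Whether the library preparation selected polyadenylated RNA or kept strand is not given in the sources used here.

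Other lists of nuclear mitochondrial genes also held more lower than higher genes. Without DMSO 3, 43 of 78 mitochondrial ribosomal protein genes fell and 1 rose (median -0.21), 18 of 51 assembly factors fell and 2 rose (median -0.15), and 12 of 18 genes of the tricarboxylic acid cycle and pyruvate dehydrogenase fell and 1 rose (median -0.18). The shares lower were 55.1%, 35.3% and 66.7%, against 20.8% of all genes. None of these genes was called by edgeR with 6 libraries. At an unadjusted p under 0.05, 12, 5 and 4 of them were lower by edgeR, against 886 of 13595 genes. DESeq2 called 1, 4 and 1 lower at its adjusted p (1.28%, 7.84% and 5.56%, against 2.89% of all genes). Among the assembly factors, COA7, which serves complex IV, was at 103, 96.9 and 74.6 CPM in DMSO and 59.3, 60.0 and 59.3 CPM in CAPE. It fell by 0.75 (SE 0.05, edgeR adjusted p = 4.24e-08), a larger fall than that of any subunit called, and had -0.62 (edgeR adjusted p = 0.162) with all 6 libraries. TMEM126B, an assembly factor of complex I, fell by 0.48 (SE 0.06, edgeR adjusted p = 2.37e-05), and COX19 and COX20, which serve complex IV, rose by 0.32 and 0.18.

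Citrate synthase (CS) and OGDH of the cycle fell by 0.38 and 0.39 (edgeR adjusted p = 4.69e-06 and 3.02e-05), and IDH2 rose by 0.37, although its 6-library value was -0.35. Of the 19 carriers and subunits outside the naming rule, 10 fell (52.6%, against 20.8% of all genes) and 1 rose (5.26%, against 20.4%). The cytochromes CYC1 and CYCS each fell by 0.15, PDSS1 and COQ7 of coenzyme Q synthesis by 0.46 and 0.39, and PDSS2 rose by 0.33. In the mitochondrial ribosome MRPL15 and MRPL36 fell by 0.55 and 0.50, and MRPL17 rose by 0.27, although its 6-library value was -0.48. The 83 tested cytosolic ribosomal protein genes had 21 lower (25.3%, against 20.8% of all genes) and 4 higher (4.82%, against 20.4%), with a median of -0.08. With all 6 libraries edgeR and DESeq2 called none of them. At an unadjusted p under 0.05 edgeR found 3 higher and 1 lower, against 1297 and 886 of 13595 genes. Voom weights called 4 lower (4.82%, against 19.7% of all genes) and 4 higher (against 21.4% of all genes).

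**Figure D5:**
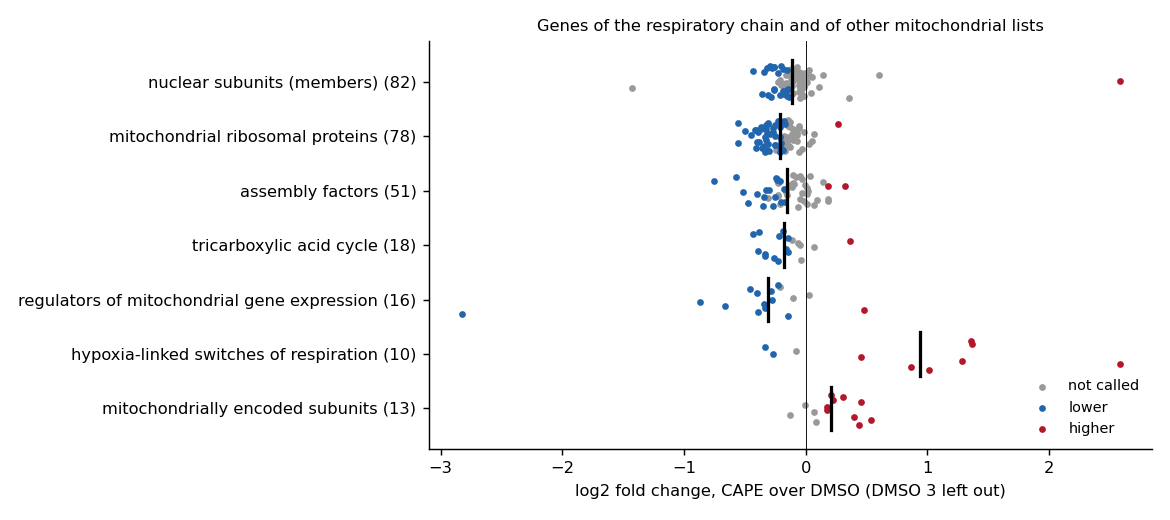
Log2 fold change of CAPE over DMSO without DMSO 3 for the genes of each list (number tested in brackets), 1 point per gene with a small vertical offset, blue for lower, red for higher and grey for not called, and a black bar at the median. The mitochondrially encoded subunits and the hypoxia-linked genes have medians above 0 (0.20 and 0.94), and the other 5 groups drawn, the members among them, have medians below 0.

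Among 16 regulators of mitochondrial gene expression 12 fell (75.0%, against 20.8% of all genes) and 1 rose (6.25%, against 20.4%) without DMSO 3. Their median was -0.31. TWNK, 1 of the 12, had 0.949 and 2.09 CPM in DMSO 1 and 2 and 0.317, 0.106 and 0.205 CPM in CAPE. It passed the filter on low counts only through DMSO, where it was high, and was not tested with 6 libraries. Of the 15 regulators tested with 6 libraries edgeR called none. At an unadjusted p under 0.05 edgeR found 2 lower, against 886 of 13595 genes. DESeq2 called 2 lower at its adjusted p (13.3%, against 2.89% of all genes). PPRC1, a PGC-1 related coactivator, was at 113, 109 and 102 CPM in DMSO and 74.2, 69.0 and 67.1 CPM in CAPE. It fell by 0.66 (SE 0.06, edgeR adjusted p = 2.73e-07), and all CAPE libraries lay below all DMSO libraries. PPRC1 had -0.62 (edgeR adjusted p = 0.0977) with all 6 libraries. PPARGC1A, which encodes PGC-1 alpha, was at 10.0, 9.87 and 4.11 CPM in DMSO and 4.86, 6.43 and 5.11 CPM in CAPE, and fell by 0.87 (SE 0.14, edgeR adjusted p = 1.73e-04), with DMSO 3 below CAPE. TFB1M, which methylates the small ribosomal RNA of mitochondria, rose by 0.48 (SE 0.10, edgeR adjusted p = 0.00148). NRF1 itself had 0.02 (SE 0.10) and was not called.

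Of 10 tested genes that switch respiration in hypoxia, 7 rose (70.0%, against 20.4% of all genes) and 2 fell (20%, against 20.8%) without DMSO 3. With all 6 libraries 3 rose, where 1.49% of all genes did: BNIP3, BNIP3L and MXI1. BNIP3, a mitophagy receptor, was at 143, 161 and 210.2 CPM in DMSO and 394, 385 and 394 CPM in CAPE, and rose by 1.36 (SE 0.05, edgeR adjusted p = 4.16e-11) without DMSO 3 and by 1.19 (SE 0.19, edgeR adjusted p = 0.0407) with it. BNIP3L, a related receptor, rose by 1.37 without DMSO 3. CHCHD4, which imports proteins into the intermembrane space, and ISCU, a scaffold for iron-sulfur clusters, fell by 0.33 and 0.27 without DMSO 3. NDUFA4L2, tested only through its CAPE counts, is 1 of the 7, LONP1, a mitochondrial protease, is another and had -0.20 with all 6 libraries, and COX4I2, listed with them, had no count.

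The promoters of the members were searched for motifs of the factors known to act on these genes. All 89 symbols were found in RefSeq, 67 by their current symbol, and 70 had a promoter in the table used (GRCh38.p14, 250 bases before to 50 after the start, both strands searched). The NRF1 core CGCATGCG was found in 14.3% of these promoters, against 2.02% of all 35116, the ETS or GABP motif CCGGAAG in 27.1% against 10.3%, and the YY1 motif ATGGCGGC in 17.1% against 2.996%. SP1 boxes (GGGCGG) were in 57.1% against 45.0%, ACGTG in 25.7% against 21.4%, and GCGTG in 47.1% against 36.5%. Of 17 lower members with a promoter in the table, 4 held the NRF1 core, 7 the ETS motif and 5 the YY1 motif, and of 49 tested members not called, 6, 12 and 7 did. ACGTG was in 7 of the 17 and 11 of the 49. SP1 boxes were in 10 and 30 (58.8% against 61.2%) and GCGTG in 7 and 25 (41.2% against 51.0%). No selection by gene type or expression was made among the 35116 promoters, so they are not matched to the members. No test was made, and a match is not evidence of binding.

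The 9 members with the NRF1 core wholly before the start are shown with up to 25 bases on each side, 4 of them called lower and 5 not called, since the same 8 bases occur in both sets. Capitals mark the core.
NDUFS6 (lower, chr5:1801337-1801394, plus strand): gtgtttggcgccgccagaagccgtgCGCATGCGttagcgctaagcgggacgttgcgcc
SDHD (lower, chr11:112086739-112086796, plus strand): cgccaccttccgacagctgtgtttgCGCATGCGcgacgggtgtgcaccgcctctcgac
ATP5G2 (lower, chr12:53676092-53676149, minus strand): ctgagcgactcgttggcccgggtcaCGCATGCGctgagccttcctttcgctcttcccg
ATP5J (lower, chr21:25735141-25735198, minus strand): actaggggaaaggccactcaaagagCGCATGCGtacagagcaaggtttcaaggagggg
NDUFB4 (not called, chr3:120596153-120596210, plus strand): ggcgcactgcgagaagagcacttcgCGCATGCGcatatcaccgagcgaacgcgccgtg
NDUFS7 (not called, chr19:1383808-1383865, plus strand): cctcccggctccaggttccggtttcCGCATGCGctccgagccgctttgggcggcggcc
COX6A1 (not called, chr12:120437869-120437926, plus strand): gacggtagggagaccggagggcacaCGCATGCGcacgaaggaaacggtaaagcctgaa
ATP5C1 (not called, chr10:7788131-7788176, plus strand): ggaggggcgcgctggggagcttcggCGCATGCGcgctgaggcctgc
ATP5I (not called, chr4:674321-674378, minus strand): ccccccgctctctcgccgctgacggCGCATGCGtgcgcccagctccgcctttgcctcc
The cores begin between 219 bases (COX6A1) and 21 bases (ATP5C1) before the start. For ATP5G2 and ATP5J that start lies inside the gene's full span (chr12:53665170-53681423 and chr21:25724500-25735653) rather than at its outer end.

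Of the 7 members called lower in every setting without DMSO 3, SDHD alone appears in this group. The 120 bases before the start of ATP5A1 and ATP5G1, which also fell in every setting, hold no NRF1 core, and they are shown for contrast. ATP5B, another of the 7, had no promoter in the table. In ATP5A1 capitals mark GGGCGG and GCGTG, both on the opposite strand, and in ATP5G1 none of the 6 motifs searched was found in this stretch.
ATP5A1 (chr18:46104228-46104347, minus strand): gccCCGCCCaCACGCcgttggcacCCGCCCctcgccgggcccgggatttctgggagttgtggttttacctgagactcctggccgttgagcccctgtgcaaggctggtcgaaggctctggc
ATP5G1 (chr17:48892667-48892786, plus strand): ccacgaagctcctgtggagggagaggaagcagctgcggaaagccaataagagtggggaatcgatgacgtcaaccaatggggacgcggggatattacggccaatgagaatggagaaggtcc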

How the data were processed

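mRNA of H446 cells was sequenced as 150-base paired-end reads in 3 DMSO and 3 CAPE libraries, and the matching miRNA counts were not used here. The authors deposited estimated counts for each gene symbol as whole numbers; per the submitters' processing notes the tools were bcl2fastq and kallisto 0.46.1 and the build GRCh38. The authors also deposited TPM per gene, which sum to 928267 to 947906 per library over the symbols listed. Neither the annotation release, the strand setting nor the summing of transcripts to genes is given in the sources used here.

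Genes were filtered with filterByExpr, scaled by TMM and tested with edgeR 4.0.16 (quasi-likelihood F test, R 4.3.3, treatment as the only term), with Benjamini-Hochberg adjustment over all 13595 genes, or 13919 without DMSO 3. CPM use TMM-scaled library sizes of the 6-library fit; log2 CPM used a prior count of 2. Standard errors were derived from the fold change and its F statistic (absolute log2 fold change over the root of F). Read-depth precision follows from 17569997 to 20917508 counts per library.

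Members are the symbols matching the naming rule, and complexes follow the prefix. Named with values were, per complex, up to 3 largest called falls and rises without DMSO 3 with an average log2 CPM of at least 3, the smallest p in each fit, the most abundant member, paralogue pairs, the SDH genes, and the 2 strongest called genes per direction of each other list. Other called members, and members and listed genes beside these, are named after their values were seen. The members, lists and rule were chosen with earlier results of these data known. Replicate numbers were not used as pairs in the main test. Alternatives were DESeq2 1.42.0, its size factors, no filter, a replicate block, a length-trend offset, limma 3.58.1 with voom quality weights or on log2(TPM + 1) and log2(TPM + 0.1), and leaving out each library. The test was also run on simulated counts, and the outcome of that run is not reported here. One member is counted in the totals and is not reported by name here.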

Additional observations from a re-analysis of the deposited data

How the results depend on the processing

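With 6 libraries, 0 members were called higher and 0 lower. The count higher became 1 with voom weights and with both TPM fits, and ran from 0 to 1 when 1 library was left out. The count lower became 1 with DESeq2 and 17 with voom weights, and ran from 0 to 23 when 1 library was left out, 23 being without DMSO 3. The medians of complexes III, IV and V became -0.15, -0.031 and -0.20 with voom weights. With 1 library left out they ran from -1.19 to -0.14, from -1.19 to -0.023 and from -1.06 to -0.20, each highest without DMSO 3. Of the 13 mitochondrially encoded genes, 2 were called higher with DESeq2 and 9 with voom weights, against 4.63% and 21.4% of all genes. With 1 library left out the count ran from 0 to 9. Of the 78 mitochondrial ribosomal genes, 1 was called lower with DESeq2 (1.28%, against 2.89% of all genes) and 42 with voom weights (53.8%, against 19.7%). With 1 library left out that count ran from 0 to 43. The counts of both lists were added after seeing the data. In the TPM fits with 6 libraries the median of all genes was 0.31 (pseudocount 1) and 0.40 (pseudocount 0.1), so fold changes there are read against that shift.

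Without DMSO 3, the 23 lower members became 14 in both TPM fits and ran from 13 (without DMSO 1) to 22 with 1 more library left out. The lower mitochondrial ribosomal genes went from 43 to 28 in both TPM fits, where 9.99% and 9.92% of all genes were lower. The median of complex II went from -0.14 to -0.26 in both.

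The sign of these members changed with the setting. With 6 libraries, ATP5S had 0.0093 and 0.029 in the TPM fits. COX7A2L, COX7B, COX8A and SDHA had 0.035, 0.0058, 0.032 and 0.043 with voom weights, COX7B had 0.0447 and 0.0451 and SDHA 0.0299 and 0.03 in the TPM fits, and NDUFA4 had 0.098 and 0.099. Without DMSO 3, NDUFA4 had 0.084 and 0.085 in the TPM fits, and COX7B had -0.0023 with no filter on low counts. With 1 library left out of the 6, ATP5S ran from -0.34 to 0.092, COX7A2L from -0.81 to 0.037, COX7B from -0.76 to 0.0045, COX8A from -1.518 to 0.049 and SDHA from -0.68 to 0.046. With 1 more library left out beside DMSO 3, COX4I1 ran from -0.029 to 0.026, COX7A2L from -0.0085 to 0.082, COX7B from -0.057 to 0.0515, COX8A from -0.034 to 0.12, NDUFA4 from -0.098 to 0.017 and UQCRHL from -0.32 to 1.64.

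Replicate numbers are shared by the groups, and deviations of same-numbered libraries from their group mean correlated at -0.19, 0.14 and -0.01. DMSO 3 stood far apart and weighs heavily on the DMSO mean. These values therefore cannot decide whether the numbers pair the libraries. With a replicate block and 6 libraries, 0 members were called, as were 0 of all 13595 genes. Without DMSO 3 that fit called 25 members lower (30.5%, against 18.4% of all genes) and 1 higher (1.22%, against 17.7%). COX7A2L and COX7B then had -0.01 and -0.058. Few counts lie behind COX6B2, NDUFA4L2 and UQCRHL, which limits the precision of their fold changes.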

Other observations

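The 157 pseudogene symbols of the same gene families, which the naming rule left out, had little expression: 43 had a count in any library and 12 a mean level of at least 1 TPM. SDHAP1, SDHAP3, SDHAP2 and UQCRFS1P1 led them, with mean levels of 28.6, 13.3, 5.41 and 4.80 TPM. Together the pseudogenes summed to 83.0, 96.0 and 20.0 TPM in DMSO 1, 2 and 3 and to 88.2, 94.9 and 93.8 TPM in CAPE 1, 2 and 3. DMSO 3 was thus lowest for the pseudogenes, at 0.224 times the mean of DMSO 1 and 2, in the library where the sum of their parent genes was highest.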
